A study of Homo sapiens with 6 samples.

Results

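Fibronectin (FN1), tenascin-C (TNC), TGFBI, thrombospondin-1 (THBS1), vimentin (VIM) and the transcriptional repressor SNAI2 were followed in the human keratinocyte line HaCaT, which is immortalised, after mild heat. The genes were chosen by symbol with the 41C against 37C contrast already known, so their changes are given as a description, and the p-values beside them place each gene in the fit over all genes and support no claim about the group. All 6 symbols had a row among the 15379 in the count table, and all 6 were among the 12056 that passed the filter on low counts. The heated cells were kept at 41C for 1 h per day on 3 days, and the control cells were kept at 37C on the same schedule, with 3 libraries at each temperature. No genetic change or further agent is given for either group, and the sources used here give no time between the last exposure and RNA isolation. Nothing in the labels states that replicates came from separate cultures; each p-value thus reflects the spread among these samples alone, which may be technical. As a model, HaCaT is 1 immortalised line. Library totals were 20139202 to 20856144 counts at 41C and 19659112 to 19745664 counts at 37C.

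When skin is wounded, fibronectin and other blood and tissue proteins form a temporary scaffold, the provisional matrix, over which keratinocytes at the wound edge crawl. Matricellular proteins such as tenascin-C and thrombospondin-1 sit in that matrix and alter how cells attach to it and how growth factors, TGF-beta in particular, reach them. Vimentin filaments and SNAI2 are better known from mesenchymal cells and from epithelial-mesenchymal transition, in which epithelial cells loosen their junctions; SNAI2 is also expressed by normal basal keratinocytes.

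The labelled cell type was checked against marker genes. The summed level of 7 keratinocyte markers (KRT5, KRT14, KRT15, TP63, DSG3, COL17A1 and SFN) was 3680 to 3810 FPKM at 41C and 3290 to 3610 FPKM at 37C, so these sums did not overlap between the temperatures. Of the 7, KRT14 and COL17A1 were higher at 41C with an adjusted p under 0.05 in edgeR's test, and the part of this difference in the other results was not tested. FPKM is the authors' count scaled to gene length and to the library total, and it is used here wherever levels of different genes are set side by side. The 8 fibroblast markers matched of 9 summed to 2.80 to 3.23 FPKM at 41C and 2.52 to 2.98 FPKM at 37C, none was at 0 in every library, and 0 of the 3 that could be tested passed. None of the tested melanocyte, endothelial or immune markers (2, 2 and 1 genes) passed either. The 4 melanocyte markers matched of 7 summed to 1.28 to 1.88 FPKM at 41C and 1.39 to 1.60 FPKM at 37C. For 4 of 5 endothelial markers the sums were 4.21 to 5.21 FPKM at 41C and 4.81 to 6.93 FPKM at 37C, and for 5 of 7 immune markers 7.94 to 9.77 FPKM at 41C and 8.18 to 10.4 FPKM at 37C. These sums rested mostly on CDH5 and CD68, a remark made after seeing the values. The part that other cell types had in the results was not tested. In bulk RNA, fewer cells expressing a gene and less of its RNA per cell cannot be told apart.

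The promoters of the 4 matrix genes are shown, and each of these transcripts lay higher in every 41C library than in every 37C library. SNAI2 did so too, and its promoter is not reported here. Each line holds the 250 bases before the RefSeq start of the gene (GRCh38.p14), 5′ to 3′ on the strand of the gene. Capitals mark matches, on either strand, to any of 9 motifs: TATAA; the CCAAT box, CCAAT; a SMAD element, GTCTG; a TEAD element, GGAATG; the AP-1 element, TGANTCA; the cAMP response element, TGACGTCA; an E-box bound by SNAI2, CAGGTG; the inverted heat shock element core, GAANNTTC or TTCNNGAA; and the CArG box of serum response factor. FN1 lies at chr2:215436069-215436318 on the minus strand, TNC at chr9:115118158-115118407 on the minus strand, TGFBI at chr5:136028738-136028987 on the plus strand and THBS1 at chr15:39580829-39581078 on the plus strand.
FN1: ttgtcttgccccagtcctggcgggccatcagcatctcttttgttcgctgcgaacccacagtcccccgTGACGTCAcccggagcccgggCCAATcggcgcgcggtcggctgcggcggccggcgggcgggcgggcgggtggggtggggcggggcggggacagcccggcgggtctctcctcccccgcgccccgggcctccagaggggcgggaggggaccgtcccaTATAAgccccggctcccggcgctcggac
TNC: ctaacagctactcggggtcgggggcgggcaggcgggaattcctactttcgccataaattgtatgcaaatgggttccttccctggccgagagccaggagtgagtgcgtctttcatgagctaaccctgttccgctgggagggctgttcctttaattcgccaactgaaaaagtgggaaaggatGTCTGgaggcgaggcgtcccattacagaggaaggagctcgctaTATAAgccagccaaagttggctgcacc
TGFBI: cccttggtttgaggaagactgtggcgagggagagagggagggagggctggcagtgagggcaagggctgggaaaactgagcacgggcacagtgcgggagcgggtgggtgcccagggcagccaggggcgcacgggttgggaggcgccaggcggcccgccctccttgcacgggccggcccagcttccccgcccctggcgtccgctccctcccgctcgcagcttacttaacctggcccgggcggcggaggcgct
THBS1: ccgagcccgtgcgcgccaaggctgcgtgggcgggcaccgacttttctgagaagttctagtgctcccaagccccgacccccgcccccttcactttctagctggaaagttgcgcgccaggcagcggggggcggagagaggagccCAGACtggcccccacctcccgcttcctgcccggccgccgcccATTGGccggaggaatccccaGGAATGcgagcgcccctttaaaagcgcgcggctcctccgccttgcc

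The 4 windows shared no motif among those searched. FN1 and TNC each had TATAA, starting 28 and 27 bases before the RefSeq start, as did 19.6% of 27305 promoters anywhere in the same window. A SMAD element (37.8% of promoters) was found in TNC and THBS1, a CCAAT box (33%) in FN1 and THBS1, a TEAD element (11.9%) in THBS1 and a cAMP response element (1.77%) in FN1. The window of TGFBI held none of the 9 motifs. The AP-1 element, SNAI2's E-box, the heat shock core and the CArG box, found in 6.6%, 17.5%, 11.7% and 1.14% of promoters, had no match in these 4 windows. The windows were 76.4% G and C for FN1, 54.8% for TNC, 72.8% for TGFBI and 69.6% for THBS1, against a median of 58.0% over all promoters. The window of VIM, not printed here, matched a heat shock core and TATAA on the opposite strand. A match is a string of letters and not a shown binding site. GENCODE 29 places the outer start of FN1, TNC and TGFBI further upstream than RefSeq does.

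The 6 genes spanned a wide range of levels. TGFBI had 372.8 ± 16.0 FPKM at 41C and 322.7 ± 4.6 FPKM at 37C (SD, n = 3 each), and THBS1 had 302.9 ± 24.2 FPKM at 41C and 236.7 ± 26.3 FPKM at 37C. The ranges of these neighbours over the 6 libraries overlapped, from 317.3 FPKM for the lowest TGFBI library to 322.1 FPKM for the highest THBS1 library. FN1 followed with 165.7 ± 4.9 FPKM at 41C and 134.0 ± 3.5 FPKM at 37C, SNAI2 with 38.3 ± 0.818 FPKM at 41C and 32.2 ± 2.2 FPKM at 37C, and TNC with 15.5 ± 0.971 FPKM at 41C and 10.7 ± 1.17 FPKM at 37C. From THBS1 downward, no gene overlapped its neighbour in any library. VIM stood far below, with 1.32 ± 0.0541 FPKM at 41C and 1.28 ± 0.156 FPKM at 37C. By mean FPKM over all libraries, TGFBI ranked 147, THBS1 183, FN1 357, SNAI2 1901, TNC 4500 and VIM 10023 among the 12056 genes tested. The cells were rich in 3 matrix transcripts and held little of the filament gene that marks mesenchymal cells. Together the 6 genes took 0.445, 0.454 and 0.431% of the counts in 41C replicates 1, 2 and 3 and 0.373, 0.339 and 0.363% in 37C replicates 1, 2 and 3.

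**Figure D1:**
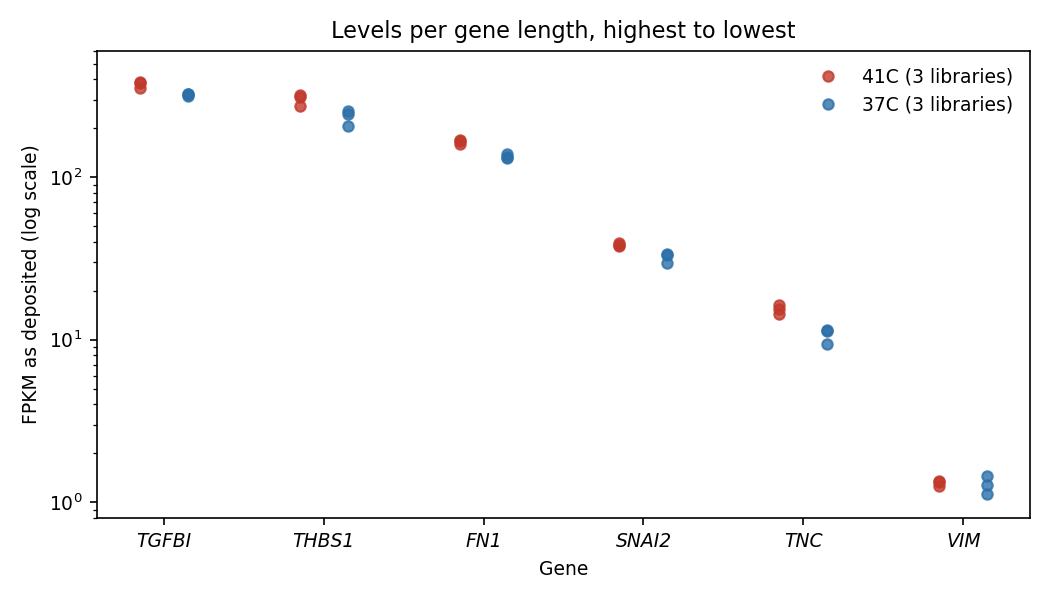
Deposited FPKM of the 6 genes on a log axis, in order of level, with a point for each of 3 libraries at 41C (red, left) and 3 at 37C (blue, right). TGFBI, THBS1 and FN1 lie above 100 FPKM, SNAI2 and TNC between 9 and 40 FPKM, and VIM near 1 FPKM in every library.

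Over all genes, 99 of 12056 had an adjusted p under 0.05 in edgeR's quasi-likelihood test, the threshold used throughout, and were higher at 41C, which is 0.821%, and 32 passed and were lower, which is 0.265%. Upper-quartile scaling gave 57 higher and 53 lower genes. An unadjusted p under 0.05 was found for 1652 genes, or 13.7%. Of the 6 genes 4 passed, all higher: FN1, TNC, TGFBI and SNAI2. In 5 of the 6, THBS1 included, every 41C library lay above every 37C library, as in 11.2% of all genes tested, while every 41C library lay below every 37C library in 8.84% of genes and in 0 of the 6. Nothing is read from these counts, since the genes were picked from this contrast. The median log2 change over the 6 genes was 0.30, and over all genes tested it was 0.00. Which libraries entered the fit decided these calls. Leaving out heated replicate 1, 2 or 3 left 3, 0 or 2 of the 6 past the threshold, and leaving out control replicate 1, 2 or 3 left 4, 2 or 4. Over all genes the 131 calls (1.09%) became 36, 5 or 41 with heated replicate 1, 2 or 3 left out, and 223, 17 or 805 with control replicate 1, 2 or 3 left out.

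FN1 encodes fibronectin, the adhesive glycoprotein of the provisional matrix (ENSG00000115414.18; GRCh38 chr2:215360440-215436172, minus strand). FN1 had 29040, 30507 and 29332 counts in 41C replicates 1, 2 and 3, against 23570, 22707 and 22516 counts in 37C replicates 1, 2 and 3. Scaled to library size, this was 1394, 1480 and 1477 CPM at 41C and 1183, 1149 and 1140 CPM at 37C. All heated libraries were above all control libraries, and the lowest of them was 1.18 times the highest control. FN1 rose 1.25-fold, with a log2 change of 0.33 ± 0.04 (SE; edgeR adjusted p = 0.00162). The spread between replicates was small, with a coefficient of variation of 3.39% at 41C and 1.96% at 37C. Its change was 0.31 to 0.35 when any 1 library was left out, and the call ended without 41C replicate 2 (edgeR adjusted p = 0.0642). Counts per gene do not tell the plasma form of fibronectin from the cellular forms made by alternative splicing.

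TNC encodes tenascin-C, a matricellular glycoprotein that is sparse in resting skin and induced at wound edges (ENSG00000041982.15; GRCh38 chr9:115019578-115118257, minus strand). TNC had 2966, 3111 and 2668 counts in 41C replicates 1, 2 and 3, against 2021, 1684 and 2079 counts in 37C replicates 1, 2 and 3. The scaled levels were 142.4, 151.0 and 134.4 CPM at 41C and 101.5, 85.2 and 105.3 CPM at 37C. No heated library overlapped a control library, and 37C replicate 2 was the lowest of all. TNC rose 1.47-fold (log2 change 0.55 ± 0.08, edgeR adjusted p = 0.00498), the largest fold of the 6 genes. Left-out libraries moved the log2 change between 0.46 (without 37C replicate 2) and 0.61 (without 37C replicate 3). The call ended without 41C replicate 2 (edgeR adjusted p = 0.0666).

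TGFBI encodes a secreted matrix protein named for its induction by TGF-beta, which binds collagen and integrins (ENSG00000120708.16; GRCh38 chr5:136028895-136063818, plus strand). TGFBI had 20042, 21369 and 20943 counts in 41C replicates 1, 2 and 3, against 16922, 17346 and 17419 counts in 37C replicates 1, 2 and 3. In CPM these were 962.0, 1037 and 1055 at 41C and 849.5, 877.6 and 882.3 at 37C. The groups did not overlap, but the gap was narrow: the lowest heated library was 1.09 times the highest control. TGFBI rose 1.17-fold (log2 change 0.23 ± 0.04, edgeR adjusted p = 0.0205). The change was 0.20 to 0.27 with 1 library left out, and TGFBI no longer passed when heated replicate 2 or 3 was omitted (edgeR adjusted p = 0.209 and 0.116) or control replicate 2 was (0.169).

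THBS1 encodes thrombospondin-1, which binds CD47 and CD36, restrains blood vessel growth and can release TGF-beta from its latent complex (ENSG00000137801.10; GRCh38 chr15:39581079-39599466, plus strand). THBS1 had 38890, 37285 and 32151 counts in 41C replicates 1, 2 and 3, against 29282, 23558 and 28104 counts in 37C replicates 1, 2 and 3. The CPM values were 1867, 1809 and 1619 at 41C and 1470, 1192 and 1423 at 37C. Every heated library was above every control library, with 41C replicate 3 the lowest heated one and 37C replicate 2 the lowest control. The log2 change was 0.37 ± 0.09, a fold of 1.3 that exceeded that of FN1, yet THBS1 did not pass (edgeR adjusted p = 0.0984). Its replicates varied more, with a coefficient of variation of 7.33% at 41C and 10.9% at 37C, where counting error alone would give 0.563%. It passed with DESeq2 (adjusted p = 0.000246) and with a correction for gene length (edgeR adjusted p = 0.0494), and in none of the fits that left out 1 library. Its log2 change was 0.28 when control replicate 2 was omitted and 0.43 when heated replicate 3 or control replicate 1 was. The gene overlaps FSIP1 on the opposite strand, which had 65 counts at 41C and 50 at 37C over 3 libraries each.

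**Figure D2:**
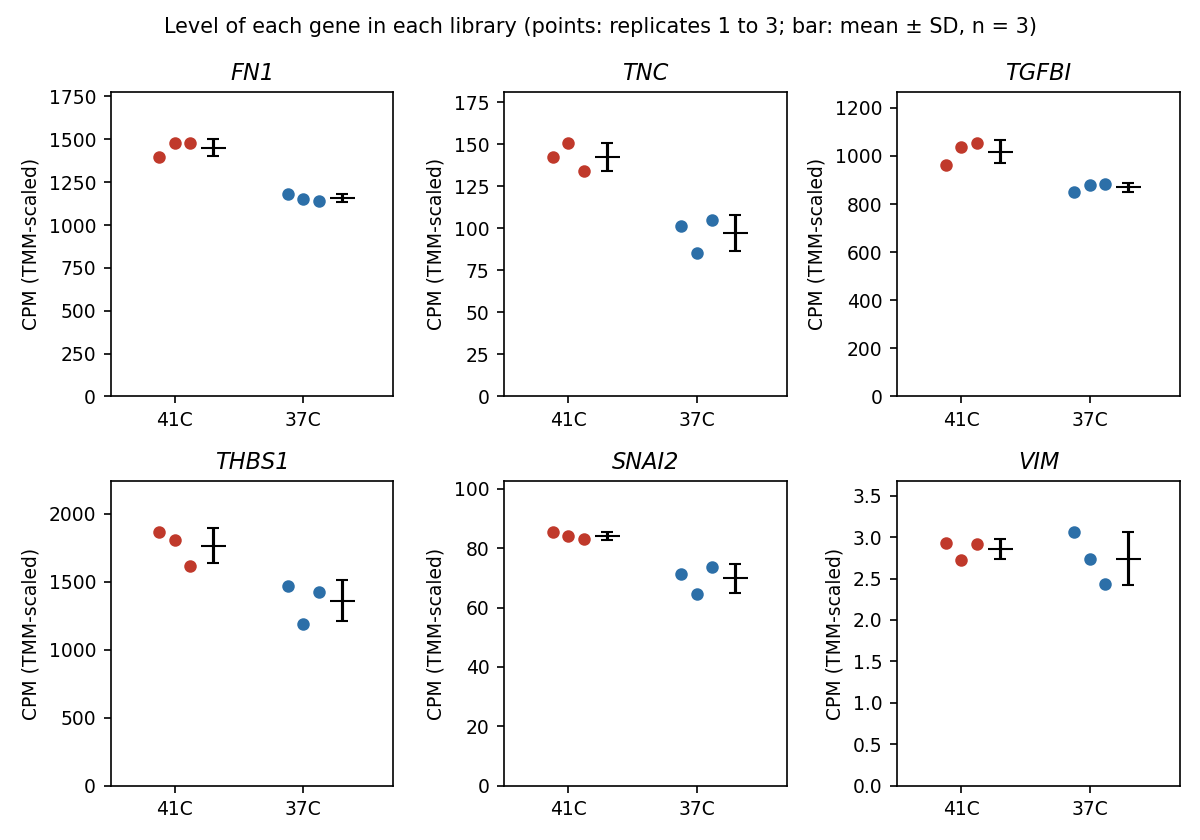
TMM-scaled CPM of each gene, each panel from 0 on its own axis, with the 3 libraries at 41C (red, left) and the 3 at 37C (blue, right) as points and the mean ± SD as a bar. The groups are apart for FN1, TNC, TGFBI, THBS1 and SNAI2, and they overlap for VIM, whose axis ends below 4 CPM.

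SNAI2 encodes a zinc finger repressor that binds E-boxes, among them those of the E-cadherin gene CDH1, and that keeps epidermal progenitors from differentiating (ENSG00000019549.11; GRCh38 chromosome 8, minus strand). SNAI2 had 1780, 1731 and 1647 counts in 41C replicates 1, 2 and 3, against 1417, 1273 and 1457 counts in 37C replicates 1, 2 and 3. The levels were 85.44, 84.0 and 82.96 CPM at 41C and 71.14, 64.4 and 73.8 CPM at 37C. The heated libraries lay close together and above the controls, among which 37C replicate 2 was again the lowest. SNAI2 rose 1.21-fold (log2 change 0.27 ± 0.06, edgeR adjusted p = 0.0384). SNAI2 no longer passed with any heated library omitted (edgeR adjusted p = 0.193, 0.223 and 0.116 for replicates 1, 2 and 3), nor with control replicate 2 omitted (0.317) or with upper-quartile scaling (0.0549). Its change was 0.21 to 0.31 with 1 library omitted.

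VIM encodes vimentin, the main intermediate filament of mesenchymal cells (ENSG00000026025.15; GRCh38 chr10:17228259-17237593, plus strand). VIM had 61, 56 and 58 counts in 41C replicates 1, 2 and 3, against 61, 54 and 48 counts in 37C replicates 1, 2 and 3. These were 2.93, 2.72 and 2.92 CPM at 41C and 3.06, 2.73 and 2.43 CPM at 37C, and the highest library of all was a control. The log2 change was 0.06 ± 0.19 (edgeR adjusted p = 0.936), with a 95% interval of -0.32 to 0.43, so a change of the size seen in FN1 was not detectable at this depth. At 48 to 61 counts per library the spread between replicates, 4.19% at 41C and 11.5% at 37C, was below the counting error of 13.3%. VIM is overlapped by the antisense gene VIM-AS1, and the strand setting of the counting is not known from the labels.

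Libraries differed from each other in more than 1 gene. Relative to the mean of its 6 libraries on the log2 CPM scale, 37C replicate 2 was at -0.46 for TNC, -0.38 for THBS1 and -0.25 for SNAI2, the lowest control in each of the 3. For FN1 and TGFBI the same library was in the middle of its group, at -0.17 and -0.10. Likewise 41C replicate 3 was the lowest heated library for TNC (0.19), THBS1 (0.07) and SNAI2 (0.12) and the highest for TGFBI (0.17). FN1 and TGFBI were lowest in 41C replicate 1, at 0.11 and 0.03. The root mean square difference between centred profiles was smallest for FN1 with TGFBI (0.0614), FN1 with SNAI2 (0.0766), TGFBI with SNAI2 (0.0855) and THBS1 with SNAI2 (0.0869), and largest for TNC with VIM (0.297).

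**Figure D3:**
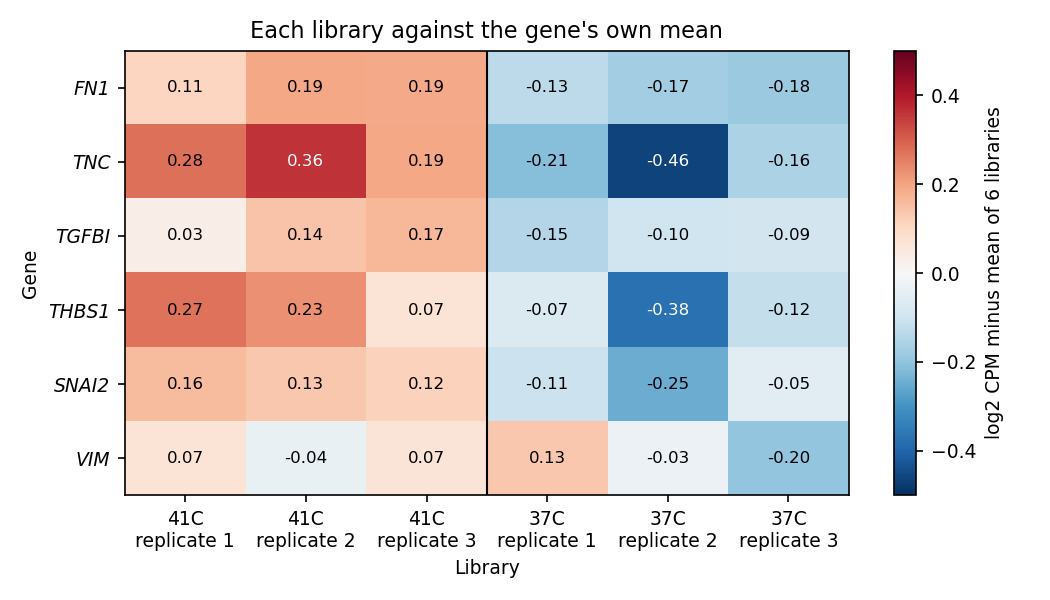
Log2 CPM of each gene in each library minus the mean of the gene over 6 libraries, with 41C libraries on the left and 37C libraries on the right; red is above the mean and blue below. The 5 upper rows are positive in every 41C library and negative in every 37C library, and 37C replicate 2 is the deepest blue for TNC, THBS1 and SNAI2.

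The genes nearest each member in pattern were searched among 9268 genes with a mean of at least 10 CPM, by the same root mean square difference over 6 libraries. They describe these 6 libraries only. Nearest to FN1 were TLE1, a transcriptional corepressor (0.0326), DYNC1H1, the dynein heavy chain (0.0331), and MMP2, a gelatinase (0.0352). Nearest to TNC were the Wnt ligand WNT7A (0.0411) and the heparan sulfate sulfotransferase HS3ST2 (0.0852). GAA and GALNT2 were among the nearest to TGFBI (0.0157 and 0.0233), and AMIGO2, IRS2 and the protease inhibitor gene SERPINE2 to THBS1 (0.0389 to 0.0568). For SNAI2 they were ABCC3 (0.0117), the cytoskeletal linker PLEC (0.0264) and IGF2R (0.0268). The nearest to VIM were SUZ12, YTHDF3 and API5, whose log2 changes were 0.09, 0.06 and 0.03.

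The receptors that bind these matrix proteins included several that rose. This and the other comparison lists, 7 in all, were chosen with earlier results of these data known. Their counts are thus a description, and no enrichment is read from them. Of 22 listed genes 16 could be tested, 5 rose and 0 fell, against 0.821% higher over all genes, and the median log2 change was 0.17. ITGA5, whose product pairs with the beta-1 chain as the classical fibronectin receptor, was the most changed, with 20.2 ± 1.49 CPM at 41C and 14.0 ± 1.91 CPM at 37C (SD, n = 3 each; log2 change 0.53 ± 0.11, edgeR adjusted p = 0.0221). ITGB5, a chain of a vitronectin receptor, had 200.6 ± 6.94 CPM at 41C and 163.7 ± 9.09 CPM at 37C and rose 1.23-fold (edgeR adjusted p = 0.00823). EGFR rose 1.21-fold (edgeR adjusted p = 0.00596) and ITGA3, a laminin receptor chain, 1.14-fold (edgeR adjusted p = 0.0347). The fifth was LRP1, named after its values were seen, an endocytic receptor of thrombospondin-1 (1.14-fold, edgeR adjusted p = 0.0480). The partner chain ITGB1 had 576.5 ± 13.1 CPM at 41C and 554.3 ± 41.2 CPM at 37C and did not pass (log2 change 0.06 ± 0.05, edgeR adjusted p = 0.681). For CD47, a receptor of thrombospondin-1, the change was -0.09 ± 0.05 on the log2 scale (edgeR adjusted p = 0.431), and both were named after their values were seen. With heated replicate 1, 2 or 3 omitted, 1, 0 or 1 receptors passed, and with control replicate 1, 2 or 3 omitted, 7, 0 or 6 did. The edgeR adjusted p with 1 library omitted reached 0.123 for EGFR, 0.124 for ITGB5, 0.203 for ITGA5 and 0.287 for ITGA3.

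The other genes of the provisional and matricellular matrix were counted in the same way. Of 37 listed symbols, among which 2 genes appear under older and current names, 29 had a row and 21 could be tested. None passed edgeR's test, which for a list of this size is near the 1.09% called over all genes. An unadjusted p under 0.05 was found for 7, against 13.7% of all genes, while 13 lay above 0 on the log2 scale and the list's median was 0.10. FBN2, a fibrillin of elastic microfibrils, had 67.0 ± 1.46 CPM at 41C and 57.3 ± 1.55 CPM at 37C (SD, n = 3 each; log2 change 0.23 ± 0.06, edgeR adjusted p = 0.0657). CCN1, a matricellular ligand of integrins, had 202.8 ± 6.83 CPM at 41C and 171.8 ± 19.0 CPM at 37C (0.24 ± 0.07, edgeR adjusted p = 0.154). The hyaluronan synthase HAS3 and the microfibril gene MFAP5 were negative on the log2 scale, at -0.18 ± 0.06 and -0.44 ± 0.17 (edgeR adjusted p = 0.185 and 0.254). With DESeq2 the count of this list was also 0, and 3 passed with control replicate 3 omitted.

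TGF-beta is a classical inducer of FN1, TNC, TGFBI, THBS1 and SNAI2 in epithelial cells. Of 22 tested genes for its ligands, latency proteins, receptors, SMADs and feedback targets, 2 rose and none fell, against 0.821% higher and 0.265% lower over all genes, and the list's median was 0.09 on the log2 scale. Among them was PMEPA1, which dampens SMAD signalling. PMEPA1 had 152.7 ± 15 CPM at 41C and 90.6 ± 5.49 CPM at 37C (log2 change 0.75 ± 0.07, edgeR adjusted p = 0.000555). It passed with any 1 library omitted. For the ligand TGFB2 the log2 change was 0.23 ± 0.07 and for the latency-family gene LTBP2 it was 0.34 ± 0.09, neither past the threshold (edgeR adjusted p = 0.124 and 0.0806). Omitting control replicate 3 raised the count to 6, and omitting replicate 2 of either temperature lowered it to 1.

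SNAI2 was the one Snail family gene at more than a trace level. Its relatives SNAI1 and SNAI3 had 0.0380 and 0.0649 FPKM at 41C and 0.0199 and 0.0778 FPKM at 37C, both named after their values were seen. ZEB1 had 0.0534 FPKM at 41C and 0.0971 FPKM at 37C, and TWIST1 had 0.508 FPKM at 41C and 0.789 FPKM at 37C. A further list held transcription factors of epithelial-mesenchymal transition and epithelial counterparts, among them the splicing regulators ESRP1 and ESRP2. Of its 14 tested genes, 0 passed edgeR's test and 1 had an unadjusted p under 0.05, with a median log2 change of 0.00. Both counts are near the shares over all genes, 1.09% and 13.7%. DESeq2 also called 0, and 1 was higher with control replicate 3 omitted. The 4 with the smallest p-values were TCF3 (0.14 ± 0.06), TWIST1 (-0.62 ± 0.30), ZEB1 (-0.83 ± 0.46) and the epithelial splicing regulator ESRP1 (-0.07 ± 0.05), with edgeR adjusted p of 0.271, 0.389, 0.442 and 0.607 on the log2 scale.

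Other mesenchymal-type genes gave a mixed picture. Of 26 listed genes 15 could be tested, and 2 rose and 0 fell, where 0.821% of all genes were higher and 0.265% lower. The median log2 change was 0.13. MMP2 had 122.0 ± 4.39 CPM at 41C and 97.9 ± 1.97 CPM at 37C (SD, n = 3 each; log2 change 0.32 ± 0.05, edgeR adjusted p = 0.00490). The receptor tyrosine kinase gene AXL had 120.8 ± 0.584 CPM at 41C and 102.0 ± 6.78 CPM at 37C (0.24 ± 0.05, edgeR adjusted p = 0.0427). MMP14, a membrane-bound collagenase, and the fibrillar collagen COL5A1 missed the threshold, at 0.13 ± 0.05 and 0.85 ± 0.30 on the log2 scale (edgeR adjusted p = 0.191 and 0.206), and COL5A1 was near 1 CPM. N-cadherin (CDH2), named after its values were seen, had 157.5 ± 1.5 CPM at 41C and 144.0 ± 7.95 CPM at 37C (log2 change 0.13 ± 0.05, edgeR adjusted p = 0.261). With heated replicate 1, 2 or 3 omitted the count was 1, 0 or 1, and with control replicate 2 or 3 omitted it was 0 or 3. The edgeR adjusted p of MMP2 was 0.0894 and 0.0690 with heated or control replicate 2 omitted, and that of AXL reached 0.332.

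**Figure D4:**
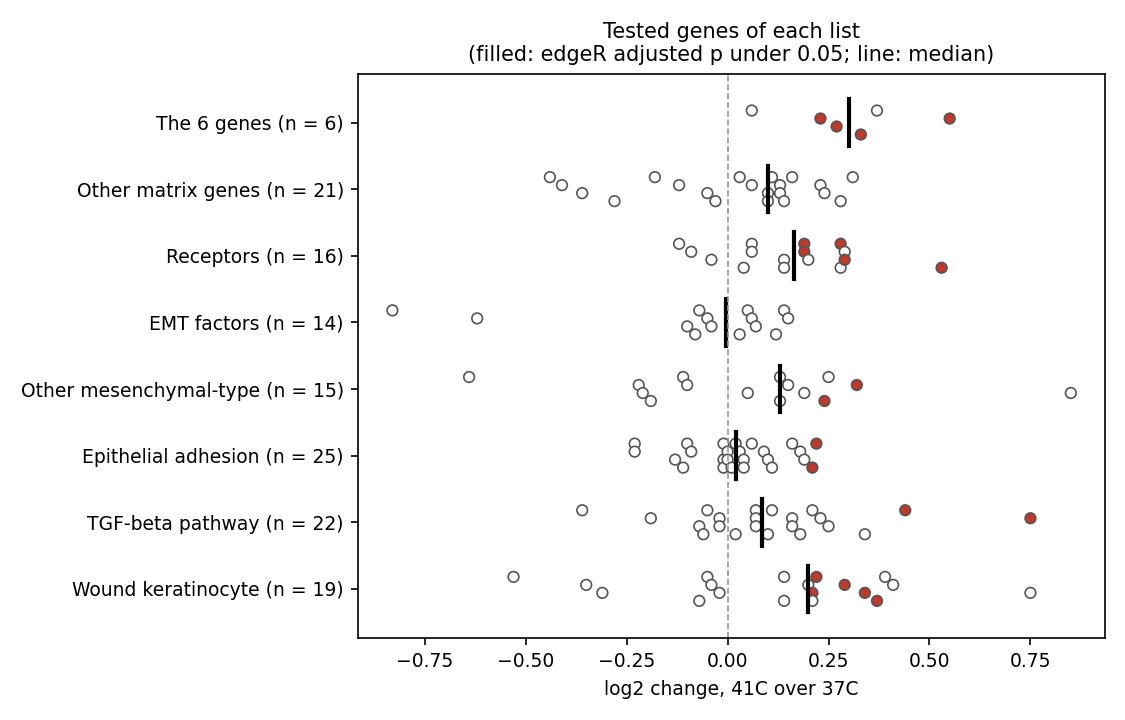
Log2 change at 41C over 37C of the 6 genes and of the tested genes in 7 lists (matrix genes, receptors, factors of epithelial-mesenchymal transition (EMT), mesenchymal-type, epithelial, TGF-beta and wound genes); filled points passed edgeR's test and the line is the median. Filled points lie to the right of 0 in every list that has any, and the lists of other matrix genes and EMT factors have none.

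In a list of epithelial adhesion genes and other epithelial genes, keratins among them, 2 of 25 tested rose and 0 fell by edgeR's test. The shares over all genes were 0.821% and 0.265%. In either direction 8 had an unadjusted p under 0.05, beside 13.7% of all genes, and the median log2 change was 0.02. E-cadherin (CDH1), a target of SNAI2 repression, had 429.6 ± 8.52 CPM at 41C and 384.7 ± 7.57 CPM at 37C (SD, n = 3 each; log2 change 0.16 ± 0.04, edgeR adjusted p = 0.0768). The desmosomal linker DSP and the basal keratin KRT14 rose 1.15-fold and 1.16-fold (edgeR adjusted p = 0.0324 and 0.0427), and KRT14 has close relatives that may share its reads. TJP1, a tight junction scaffold, was at 0.18 ± 0.04 on the log2 scale (edgeR adjusted p = 0.0639). CLDN7 had the lowest p among those with a negative change (-0.23 ± 0.06, edgeR adjusted p = 0.0954) and was named after its values were seen. None passed with any heated library or control replicate 2 omitted, or with upper-quartile scaling. With control replicate 1 omitted 1 was higher and 1 lower, and with control replicate 3 omitted 5 were higher and 2 lower. With 1 library omitted the edgeR adjusted p reached 0.250 for DSP and 0.345 for KRT14.

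Among genes that keratinocytes raise at wound edges, 2 laminin chain genes rose with the provisional matrix genes. Of 25 listed genes 19 could be tested, of which 5 rose and 0 fell, and over all genes 0.821% were higher and 0.265% lower. The median log2 change was 0.20. LAMA3 and LAMB3, which encode chains of basement membrane laminins, rose 1.29-fold and 1.22-fold (edgeR adjusted p = 0.00170 and 0.0109). CD44, a hyaluronan receptor, had 1073 ± 5.36 CPM at 41C and 921.2 ± 28.4 CPM at 37C (SD, n = 3 each; log2 change 0.22 ± 0.04, edgeR adjusted p = 0.0156). The wound keratin KRT6A, which has near-identical copies and was named after its values were seen, also rose (1.16-fold, edgeR adjusted p = 0.0421). The inflammatory signals IL1B and CXCL8, also named after their values were seen, stood at -0.07 ± 0.06 and -0.31 ± 0.13 on the log2 scale (edgeR adjusted p = 0.657 and 0.308). Omitting heated replicate 1, 2 or 3 left 2, 0 or 3 higher, and omitting control replicate 1, 2 or 3 left 4, 2 or 7 higher and 1, 0 or 1 lower. With heated replicate 2 omitted the edgeR adjusted p was 0.0642 for LAMA3, 0.174 for LAMB3 and 0.174 for CD44.

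**Figure D5:**
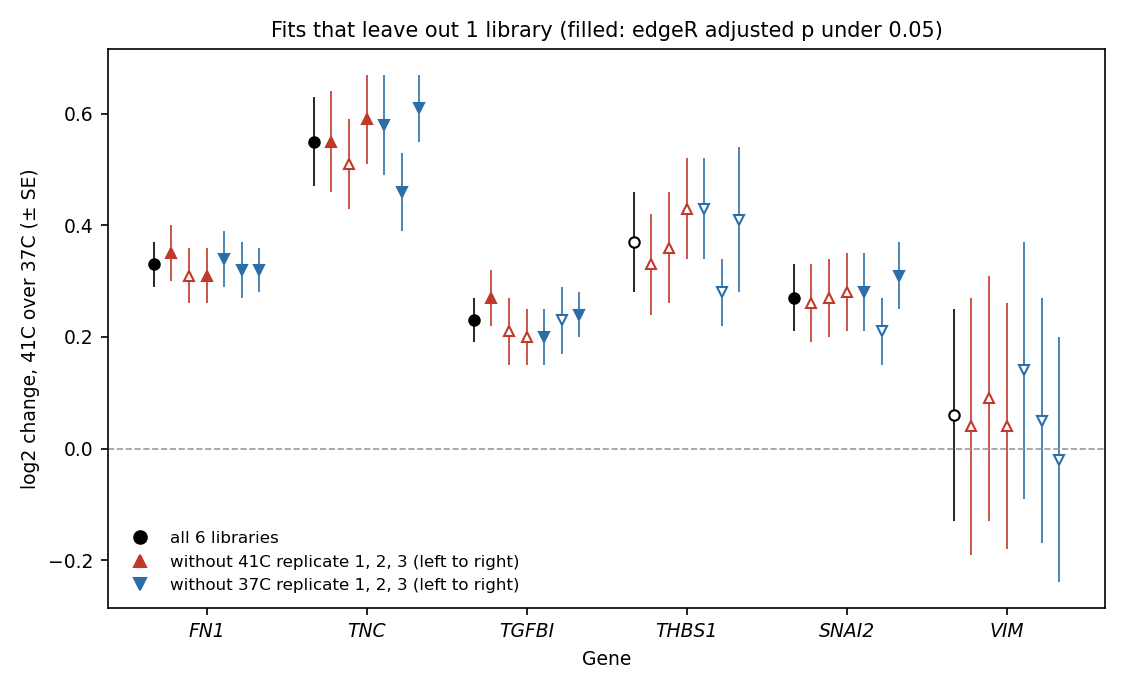
Log2 change at 41C over 37C ± SE of each gene with all 6 libraries (black) and with 1 library left out (red, a 41C library; blue, a 37C library), filled where edgeR's adjusted p was under 0.05. FN1, TNC, TGFBI, THBS1 and SNAI2 stay above 0 in each fit, none is filled without 41C replicate 2, and VIM lies between -0.02 and 0.14.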

How the data were processed

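Poly(A) RNA was sequenced from 6 libraries of HaCaT cells. Per the labels' protocols, RNA came from a mirVana isolation and libraries from the stranded TruSeq mRNA kit. The submitters' processing notes name Trimmomatic 0.36, HISAT2 without a version, and the build GRCh38.p13. The sources used here give no read counter, annotation or strand setting. The deposited counts are whole numbers of reads per gene symbol, not normalized, with 19659112 to 20856144 per library. The FPKM values deposited by the authors equal those counts scaled to 1 gene length and to the total of the library, within 0.01%, so they are no second measurement. They were used for levels compared between genes and for gene lengths.

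Counts were tested at 41C over 37C with edgeR 4.0.16 in R 4.3.3, on the 12056 of 15379 symbols kept by filterByExpr. TMM scaling, the robust quasi-likelihood fit and Benjamini-Hochberg adjustment over all 12056 genes at 0.05 were used, and the fit was tested on simulated data. CPM values are TMM-scaled. The members and the 7 comparison lists were chosen with earlier results of these data known. Genes named were the 6 members, up to 4 genes per list with the smallest p-values, and the 3 genes nearest each member in pattern; any other gene was chosen after its values were seen. Some genes that this rule names are not reported here. Alternatives were DESeq2 1.42.0, other scaling and filters, a replicate block, a correction for gene length (splines with 4 degrees of freedom), each library left out, and limma 3.58.1 on log2(FPKM + 1) or log2(FPKM + 0.1). Promoter sequences are from RefSeq (GRCh38.p14) and gene positions from GENCODE 29 (GRCh38).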

Additional observations from a re-analysis of the deposited data

How the results depend on the processing

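In the 16 alternatives FN1, TNC, TGFBI, THBS1 and SNAI2 had positive log2 changes throughout; FN1 passed in 15, TNC in 13, TGFBI in 11, SNAI2 in 9, THBS1 in 2 and VIM in 0. With each library omitted in turn, log2 changes were 0.31 to 0.35 for FN1, 0.46 to 0.61 for TNC, 0.20 to 0.27 for TGFBI, 0.28 to 0.43 for THBS1, 0.21 to 0.31 for SNAI2 and -0.02 (without 37C replicate 3) to 0.14 for VIM. In those fits the calls ran from 5 to 805 over all genes (4 to 483 higher, 1 to 322 lower) and from 0 to 4 among the 6 genes. Higher calls ran from 0 to 3 for other matrix genes, 0 to 7 for receptors, 0 to 1 for transition factors, 0 to 3 for mesenchymal-type genes, 0 to 5 for epithelial genes (lower 0 to 2), 1 to 6 for TGF-beta genes and 0 to 7 for wound genes (lower 0 to 1). Libraries of 3 against 3 allow no exact permutation p below 0.1 for 1 gene. All calls thus rest on the fitted models, which combine each gene's own spread with that shared across genes.

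Same-numbered libraries deviated together by correlations of 0.082, -0.0194 and 0.0774 for replicates 1, 2 and 3. The values for replicates 1 and 3 were the highest of any 41C library with any 37C library. In contrast, 41C replicate 2 correlated best with 37C replicate 1 (0.0663). These values do not settle whether the numbers are pairs, and the main fit did not take them as such. With the replicate block 438 genes passed (297 higher, 141 lower), and with the block and a length correction 512 did (417 and 95). The block gave 1 higher call for other matrix genes, 8 for receptors and 5 for epithelial genes (1 lower), and 1 lower wound gene. The block with length correction gave 3, 8, 6 and, for TGF-beta genes, 5 higher calls, 1 lower wound gene, and 0.54 for TNC (edgeR adjusted p = 0.0810). No filter gave 284 calls (184 higher, 100 lower), with 1 higher matrix gene and 5 higher and 1 lower epithelial genes. Upper-quartile scaling gave 57 higher and 53 lower calls, 3 receptors, 1 mesenchymal-type and 0 epithelial genes higher, and 0.25 for SNAI2 (edgeR adjusted p = 0.0549); it moved the median of all genes by less than 0.1. DESeq2 called 61 lower genes and 1 lower wound gene, and THBS1 passed at 0.37; with length correction THBS1 passed at 0.38, and 1 other matrix gene was higher.

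Limma on log2(FPKM + 1), which understates low genes, called 11 genes (5 higher, 6 lower), 1 of the 6 members, 1 TGF-beta gene and 0 receptors, mesenchymal-type, epithelial or wound genes. With log2(FPKM + 0.1) it called 40 genes (22 higher, 18 lower), 2 members, 1 mesenchymal-type gene, 2 wound genes and 0 receptors or epithelial genes. Log2 changes were then 0.50 for TNC with the larger pseudocount (limma adjusted p = 0.0535), and with either pseudocount 0.21 for TGFBI and 0.25 for SNAI2. The cause of these shifts was not tested. Depth limits VIM, ZEB1 and TWIST1, which had few counts.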
